A study of Mus musculus with 8 samples.

Results

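This account describes 10 genes for the uptake, binding and activation of fatty acids in mouse liver: Cd36, Slc27a2, Slc27a4, Fabp1, Fabp2, Fabp4, Fabp5, Acsl1, Acsl4 and Acsl5. They were chosen by function and matched by gene symbol to the probe sets of an Affymetrix expression array. A probe set, a group of probes for 1 transcript, carried 1 symbol and stood for its gene. In this way 8 of the 10 genes were measured, among 19540 genes in all, each of the 8 through a single probe set. Fabp5, encoding the epidermal-type binding protein, and Acsl1, encoding a long-chain acyl-CoA synthetase abundant in liver, were not analysed here. Liver total RNA from 4 wild-type arrays (WT) was compared with that from 4 HNF6-depleted arrays (HNF6KO). Every sample carries the labels male, strain C57B/6 and age 12 weeks. The livers came from mice on normal chow and a normal light and dark schedule without specific treatment, and were taken at ZT10 (10 h after lights on). HNF6 is a hepatic homeodomain transcription factor encoded by Onecut1. The labels name no allele, driver or virus behind the depletion, no cell type in which it acts, and no animal per array. The spread between arrays, on which each p-value rests, may therefore be technical in part.

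Long-chain fatty acids cross the hepatocyte membrane with the help of CD36, a scavenger receptor also called fatty acid translocase, and of the fatty acid transport proteins of the SLC27A family, which join fatty acids to coenzyme A as they enter. In the cytosol they are held by small fatty acid binding proteins (FABPs), of which FABP1 is the hepatocyte form. Acyl-CoA synthetases (ACSLs) then make acyl-CoA, which keeps the fatty acid inside the cell and commits it to oxidation, to triglyceride or to membrane lipid. Many of these genes are textbook targets of the nuclear receptor PPARα in hepatocytes, and Cd36 also of PPARγ, LXR and PXR.

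No gene of the group passed the test between HNF6KO and WT livers, and Cd36 and Acsl4 lay furthest above WT. Of the 8 measured genes, 0 rose and 0 fell at an adjusted p of 0.05 (limma, Benjamini-Hochberg over all genes), beside 0.399% of all genes in either direction (0.159% higher and 0.241% lower). At an unadjusted p of 0.05 in limma, Cd36 and Acsl4 were higher and 0 were lower, beside 4.3% of all genes higher and 5.21% lower. In 0 of the 8 did the 4 HNF6KO arrays lie wholly on 1 side of the 4 WT arrays, beside 5.67% of all genes. Log2 changes, given throughout as HNF6KO minus WT, were above 0 for 5 genes, beside 42.6% of all genes, and below 0 for 3, beside 57.4% of all genes. Their median was 0.08, beside -0.01 over all genes, and they ran from -0.16 to 0.99. The count of 0 stood in each alternative normalization, variance model, threshold, array split and left-out array that was run.

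**Figure D1:**
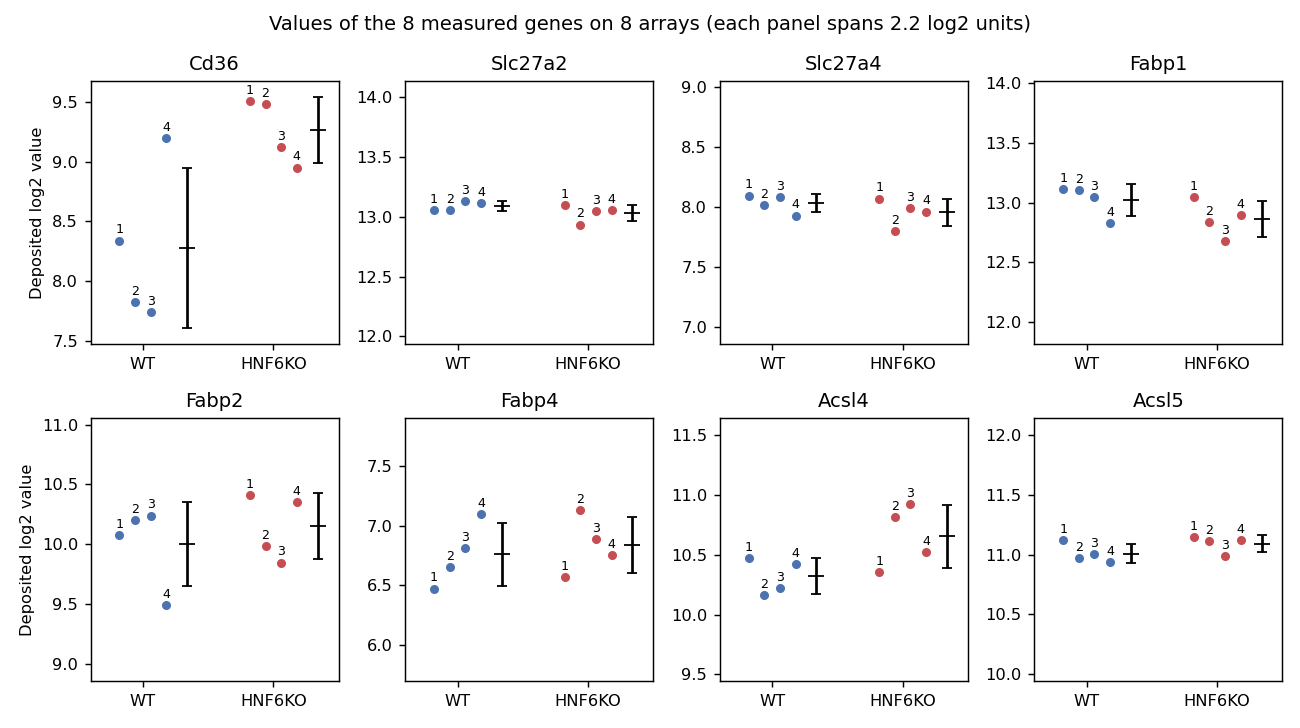
Deposited log2 values of the 8 genes on each array; points are arrays with their number, the dash and bar beside each group are the mean ± SD (n = 4), and every panel spans the same range of log2 units. The groups overlap in each panel, Cd36 has the widest WT spread (SD 0.67), and Slc27a2 the narrowest (SD 0.04).

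The promoter windows of 3 genes are shown, those of Cd36 and Acsl4 because these genes lay furthest above WT, and that of Fabp1 because it lay furthest below. Each runs from 250 bases before to 50 bases after the start of the gene in RefSeq, build GRCm38.p6, 5′ to 3′ on the strand of the gene. Capitals mark AGGTCA or its reverse complement, the 6 letters that nuclear receptors such as PPARα recognise in pairs, a search added after the sequences were read. The windows are chr5:17835847-17836146 on the minus strand for Cd36, chrX:142390486-142390785 on the minus strand for Acsl4, and chr6:71199629-71199928 on the plus strand for Fabp1.
Cd36: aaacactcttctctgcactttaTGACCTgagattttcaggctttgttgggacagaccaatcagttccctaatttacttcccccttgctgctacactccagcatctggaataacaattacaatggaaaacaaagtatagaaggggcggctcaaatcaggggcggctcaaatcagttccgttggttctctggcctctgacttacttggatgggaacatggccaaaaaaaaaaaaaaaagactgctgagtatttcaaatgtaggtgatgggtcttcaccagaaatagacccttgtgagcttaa
Acsl4: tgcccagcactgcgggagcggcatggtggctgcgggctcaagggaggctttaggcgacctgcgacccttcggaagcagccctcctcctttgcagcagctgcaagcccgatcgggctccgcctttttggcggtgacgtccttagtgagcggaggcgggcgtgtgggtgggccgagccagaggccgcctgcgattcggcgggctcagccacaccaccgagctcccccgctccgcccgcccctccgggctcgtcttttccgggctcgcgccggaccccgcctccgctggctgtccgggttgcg
Fabp1: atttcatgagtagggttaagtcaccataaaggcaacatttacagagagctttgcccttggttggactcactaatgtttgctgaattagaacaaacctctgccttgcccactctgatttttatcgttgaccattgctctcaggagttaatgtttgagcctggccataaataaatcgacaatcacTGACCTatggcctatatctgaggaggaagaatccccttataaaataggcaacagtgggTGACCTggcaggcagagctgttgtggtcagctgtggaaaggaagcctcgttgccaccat
The Cd36 window held 1 match, beginning at position -228 from the start. The Fabp1 window held 2, beginning at positions -67 and -9, and the Acsl4 window held 0. Of the 8 genes with a RefSeq window (9 windows, 2 of them for Acsl1), 3 had such a match, the third being Slc27a2 at position -220, beside 16.3% of 32851 windows of the same length. The HNF6 core letters ATTGAT were searched on both strands and found in 0 of the 9 windows, beside 7.54% of all windows. The direct repeat DR1 was searched only as a pair of exact AGGTCA copies with any 1 base between them. It was found in 0 of the 9 windows, beside 0.0396% of all, and pairs with a differing letter were not counted. In the Fabp1 window the match at -67 is followed, after 1 base, by tggcct, which differs from TGACCT in 1 letter. A match or its lack describes these letters in these windows only.

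Cd36 (Entrez 12491), the scavenger receptor and fatty acid translocase, had the largest difference of the group. On WT arrays 1 to 4 it was measured, on the deposited log2 scale, at 8.34, 7.82, 7.74 and 9.20. The HNF6KO arrays, in the same order, gave 9.51, 9.48, 9.12 and 8.95. WT array 4 lay above HNF6KO arrays 3 and 4, while the other WT arrays lay below all 4 HNF6KO arrays. The means were 8.28 ± 0.67 in WT and 9.27 ± 0.27 in HNF6KO (SD, n = 4). The difference of 0.99 ± 0.30 (SE) is 1.98-fold and did not pass (limma, adjusted p = 0.300). The 95% interval ran from 0.31 to 1.66 and, like those below, is not adjusted for the number of genes. The WT spread of Cd36 was at the 99.6th percentile of WT standard deviations over all genes. Without WT array 4 the change was 1.30 (limma, adjusted p = 0.0522), and leaving out any other single array gave 0.81 to 1.09. The change was 1.41 between the arrays numbered 1 and 2 alone, and 0.57 between those numbered 3 and 4. These changes differed by -0.85 ± 0.56 (SE), which did not pass as an interaction in limma (adjusted p = 0.587). That split goes only by the array numbers in the sample titles, and the labels name no batch. With a term for the split in the fit, Cd36 had an adjusted p of 0.179 in limma. Kupffer and endothelial cells also express Cd36. The mean of 12 Kupffer cell and macrophage markers was 0.10 higher in HNF6KO than in WT, and that of 12 sinusoidal endothelial markers was 0.16 higher. In either list 0 rose or fell, beside 0.399% of all genes. Changes lay above 0 for 11 of the 12 Kupffer markers and all 12 sinusoidal ones, beside 42.6% of all genes. Markers of 1 list varied together between arrays, so these are not counts of separate changes. The Kupffer means ran from 7.65 to 8.97 in WT and from 7.72 to 9.35 in HNF6KO. In neither group did the array means of either list stand in the order of Cd36. For each list the array means of the 2 groups overlapped. The part of these cells in the Cd36 values was not tested, and in whole liver more cells of a type cannot be told apart from more RNA per cell.

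**Figure D2:**
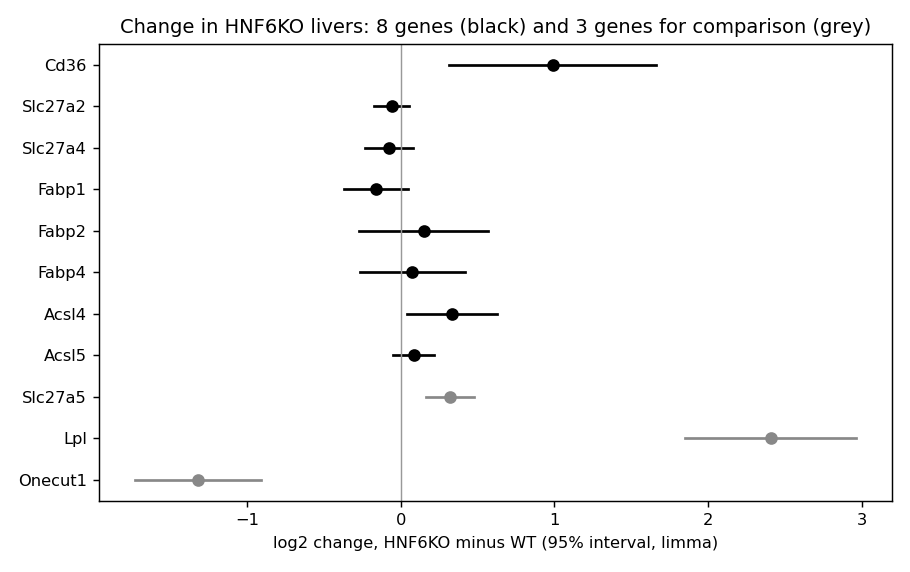
Log2 change (HNF6KO minus WT) of each gene with its 95% interval from limma, not adjusted for the number of genes; the 8 genes are black, and Slc27a5, Lpl and the depleted gene Onecut1 are grey. The intervals of Cd36 and Acsl4 lie above 0, and those of the other 6 genes include 0.

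The SLC27A transporters Slc27a2 and Slc27a4 differed little between the groups. Slc27a2 (Entrez 26458) encodes FATP2, a transporter and very long-chain acyl-CoA synthetase of hepatocytes. It was measured at 13.05, 13.06, 13.13 and 13.12 on the WT arrays and at 13.09, 12.93, 13.05 and 13.05 on the HNF6KO arrays, in array order. All 8 values lay within 0.20 of each other, and only HNF6KO array 2 stood slightly below the rest. This gave a log2 change of -0.06 ± 0.05 (SE), with an interval of -0.17 to 0.06 (limma, adjusted p = 0.802). Slc27a4 (Entrez 26569) encodes FATP4, a transporter of many tissues with synthetase activity. It was measured at 8.10, 8.02, 8.08 and 7.93 in WT and at 8.07, 7.80, 7.99 and 7.96 in HNF6KO. The lowest value was again that of HNF6KO array 2, and the other HNF6KO arrays fell inside the WT range. Slc27a4 thus had a log2 change of -0.07 ± 0.07 (SE), with an interval of -0.23 to 0.08 (limma, adjusted p = 0.813).

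Fabp1, the liver-type binding protein gene (Entrez 14080), lay slightly lower in HNF6KO with overlapping groups. The WT arrays gave 13.11, 13.11, 13.04 and 12.83, and the HNF6KO arrays gave 13.05, 12.83, 12.68 and 12.89. WT array 4 was low among the WT arrays, and only HNF6KO array 3 lay below all of them. The means were 13.02 ± 0.13 and 12.86 ± 0.15 (SD, n = 4). The change of Fabp1 was -0.16 ± 0.09 (SE), with an interval of -0.37 to 0.05 (limma, adjusted p = 0.653). It was -0.17 among arrays 1 and 2 and -0.15 among arrays 3 and 4.

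Fabp2 and Fabp4, the binding proteins best known from intestine and from fat, varied more between arrays of 1 group than between the groups. Fabp2 (Entrez 14079) was measured at 10.07, 10.20, 10.24 and 9.49 in WT and at 10.41, 9.99, 9.85 and 10.35 in HNF6KO, in array order. WT array 4 was the lowest of all 8, and the 2 groups overlapped over most of their range. Between the groups Fabp2 differed by 0.15 ± 0.19 (SE), with an interval of -0.27 to 0.57 (limma, adjusted p = 0.880). Without WT array 4 it was -0.023, so its sign rested on that array. Of 10 enterocyte markers 0 rose and 0 fell, beside 0.399% of all genes. At an unadjusted p of 0.05 in limma 2 were lower and 0 higher, beside 5.21% and 4.3% of all genes. The mean of the log2 values of these markers ran from 6.89 to 6.95 in WT and from 6.83 to 6.94 in HNF6KO. Of the 10, 7 lay below the median of all genes (6.97). The brightest of them was Anpep, a peptidase gene also expressed in liver, at a mean of 11.43, and the dimmest was the brush border enzyme gene Sis at 4.63. The part of enterocyte RNA in the Fabp2 values was not tested.

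Fabp4 (Entrez 11770), the adipocyte-type binding protein gene, which macrophages and capillary endothelium also express, had log2 values of 6.47, 6.66, 6.81 and 7.09 in WT and 6.57, 7.13, 6.88 and 6.76 in HNF6KO. The groups overlapped almost wholly. The values sit near the array medians (6.89 to 6.97), where part of the signal can be background and a change can be understated. Fabp4 had a log2 change of 0.08 ± 0.15 (SE), with an interval of -0.26 to 0.41 (limma, adjusted p = 0.941). Its sign turned without WT array 1 (-0.019), without HNF6KO array 2 (-0.022), and among arrays 3 and 4 alone (-0.13). Adipocyte markers were low, with 6 of 7 measured below the median of all genes and the fat hormone gene Adipoq at a mean of 5.55. Of these markers 0 rose or fell, beside 0.399% of all genes. At an unadjusted p of 0.05 in limma 2 were lower and 0 higher, beside 5.21% and 4.3% of all genes. Changes lay below 0 for 6 of the 7, beside 57.4% of all genes. The 1 bright gene of that list, Car3, is a carbonic anhydrase gene that hepatocytes also express. Kupffer cell and macrophage markers averaged 7.65, 8.52, 8.84 and 8.97 in WT and 8.23, 7.72, 9.35 and 9.09 in HNF6KO, in array order. In WT these means stood in the same order as Fabp4, and in HNF6KO they did not. Capillary endothelial markers averaged at most 7.30 in WT and 7.27 in HNF6KO, and none of the 8 measured rose or fell, beside 0.399% of all genes. The part of these cells in the Fabp4 values was not tested.

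Acsl4 (Entrez 50790), encoding an acyl-CoA synthetase that prefers arachidonic acid, had the next largest difference after Cd36. The WT arrays gave 10.47, 10.17, 10.22 and 10.42 in order, and the HNF6KO arrays 10.36, 10.82, 10.93 and 10.52. HNF6KO arrays 2, 3 and 4 lay above every WT array, and HNF6KO array 1 fell inside the WT range. The means were 10.32 ± 0.15 in WT and 10.66 ± 0.26 in HNF6KO (SD, n = 4). The difference of 0.33 ± 0.13 (SE) is 1.26-fold, with an interval of 0.042 to 0.63 (limma, adjusted p = 0.442). It was 0.43 without HNF6KO array 1 (limma, adjusted p = 0.168) and stood at 0.27 among arrays 1 and 2 and at 0.40 among arrays 3 and 4. Stellate cell markers averaged 8.18 to 8.68 in WT and 8.30 to 8.70 in HNF6KO. Of the 10, 0 rose or fell, beside 0.399% of all genes. The part of stellate cells in the Acsl4 values was not tested.

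Acsl5 (Entrez 433256), encoding an acyl-CoA synthetase of endoplasmic reticulum and mitochondria, was nearly level. It was measured at 11.12, 10.97, 11.01 and 10.93 in WT and at 11.15, 11.11, 10.99 and 11.12 in HNF6KO. HNF6KO arrays 2, 3 and 4 fell inside the WT range, and HNF6KO array 1 lay just above it. Acsl5 differed by 0.08 ± 0.06 (SE), with an interval of -0.05 to 0.22 (limma, adjusted p = 0.727).

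**Figure D3:**
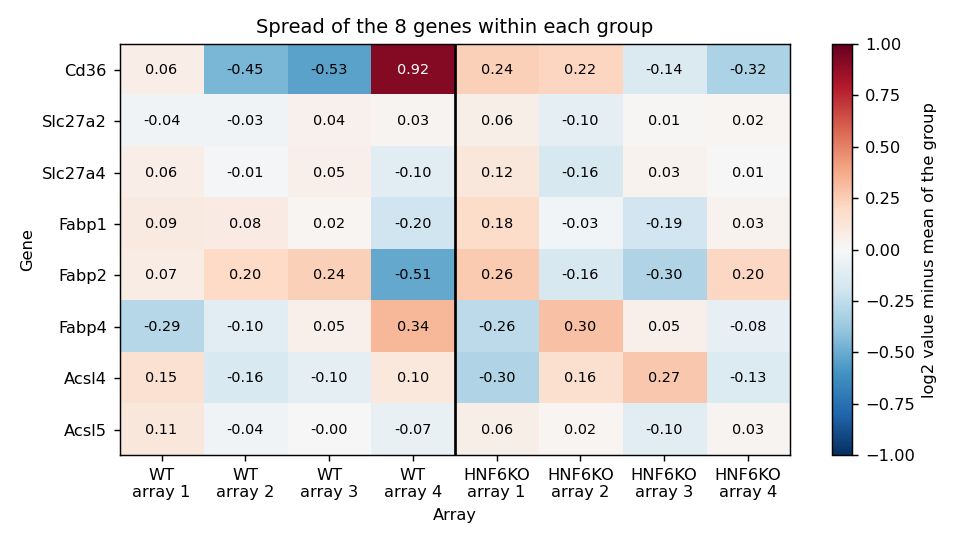
Each cell is the log2 value of a gene (row) on an array (column) minus the mean of that gene in its own group, in red above and in blue below; the line divides WT from HNF6KO. WT array 4 is high for Cd36 (0.92) and low for Fabp2 (-0.51), and HNF6KO array 1 is low for Fabp4 and Acsl4.

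For each array, the genes for which it was highest or lowest of its group were counted. With 4 arrays in a group this is common, at 41.4% to 60.2% of all genes by array. Whether the counts over 8 genes differ from these shares was not tested. WT array 4 held the highest WT value of Cd36 and Fabp4 and the lowest of Slc27a4, Fabp1, Fabp2 and Acsl5, 6 of the 8 genes, beside 51.1% of all genes for which it was at either end of its group. WT array 1 was also at an end for 6 of the 8 (50.7% of all genes). HNF6KO array 1 was at an end of its group for 8 of the 8 genes, highest for Cd36, Slc27a2, Slc27a4, Fabp1, Fabp2 and Acsl5 and lowest for Fabp4 and Acsl4. Over all genes it was at an end for 60.2%. HNF6KO array 4 and WT array 2 were each at an end for 1 gene, beside 53.3% and 44.5% of all genes. WT array 3 was at an end for 3 genes (53.8% of all genes). HNF6KO arrays 2 and 3 were at an end for 3 and 4 (45.1% and 41.4% of all genes).

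**Figure D4:**
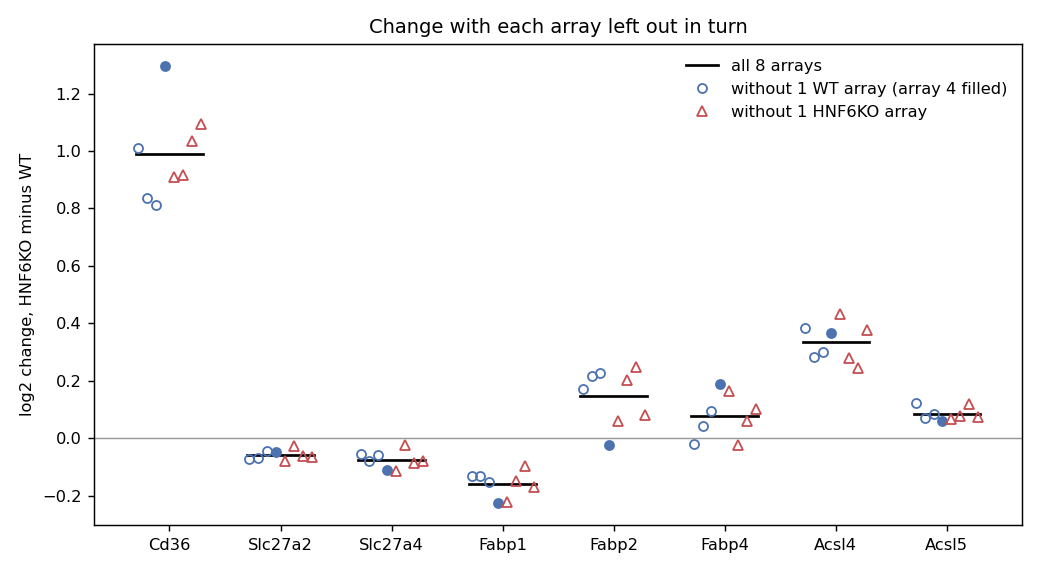
Log2 change of each gene (HNF6KO minus WT) with all 8 arrays (line) and with 1 array left out: circles leave out a WT array, the filled circle being WT array 4, and triangles leave out an HNF6KO array. Cd36 moves between 0.81 and 1.30 and stays furthest from 0, while Fabp2 and Fabp4 cross 0.

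The other genes of fatty acid uptake, binding and activation were mostly level, apart from Lpl. Of 26 measured, 1 rose (Lpl), 0 fell and 25 did not pass, beside 0.399% of all genes that passed in either direction. The median log2 change of the 26 was -0.01, the same as over all genes to 2 decimals. At an unadjusted p of 0.05 in limma 3 were higher and 0 lower, beside 4.3% and 5.21% of all genes. The groups did not overlap for 2 higher genes (Lpl and Slc27a5) and 1 lower gene (Acsm1), beside 5.67% of all genes in either direction. Lpl encodes lipoprotein lipase, which frees fatty acids from circulating triglyceride ahead of their uptake. It was measured at 7.05, 7.55, 7.67 and 7.73 in WT and at 9.93, 10.61, 9.46 and 9.63 in HNF6KO, so that all HNF6KO arrays lay above all WT arrays, as they did not for Cd36. Lpl rose by 2.41 ± 0.25 (SE, limma, adjusted p = 0.00773), and it passed in each of the 20 alternative fits, with changes of 1.84 to 2.97. Slc27a5, encoding the bile acid and very long-chain acyl-CoA synthetase FATP5 of hepatocytes, had WT values of 11.99, 11.86, 11.84 and 11.86 and HNF6KO values of 12.39, 12.14, 12.16 and 12.15. The groups did not overlap, and the change of 0.32 ± 0.07 missed the threshold (limma, adjusted p = 0.131). Slc27a1, the FATP1 gene of muscle and fat, had a change of 0.14 ± 0.05 (adjusted p = 0.429). Acsm1, a medium-chain acyl-CoA synthetase gene, had one of -0.14 ± 0.06 (adjusted p = 0.539) with groups that did not overlap.

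The nuclear receptors known to act on these genes did not pass the test. Of 9 measured, 0 rose and 0 fell, beside 0.399% of all genes in either direction. A log2 change below 0 was found for 8 (57.4% over all genes), and the median was -0.08, beside -0.01 over all genes. In limma 0 were higher and 1 (Pparg) lower at an unadjusted p of 0.05, beside 4.3% and 5.21% of all genes. Pparg (PPARγ) was measured at 8.41, 8.26, 8.09 and 7.88 in WT and at 7.97, 7.61, 7.62 and 7.78 in HNF6KO. The groups overlapped through WT array 4 and HNF6KO array 1. Its change was -0.42 ± 0.12 (SE, limma, adjusted p = 0.291), and any part of Pparg in the Cd36 values was not tested. Ppara, encoding the receptor PPARα, had a change of -0.08 ± 0.08 (adjusted p = 0.839). The xenobiotic receptor gene Nr1i3 (CAR) had one of -0.33 ± 0.22 (adjusted p = 0.714). Hnf4a, encoding the hepatocyte factor HNF4α, had one of -0.19 ± 0.18 (adjusted p = 0.821).

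Targets of PPARα and PPARγ other than the genes above did not pass the test. Of 16 measured PPARα targets 0 rose and 0 fell, beside 0.399% of all genes in either direction. A change below 0 was found for 12 (57.4% over all genes), and the median was -0.06, beside -0.01 over all genes. At an unadjusted p of 0.05 in limma 4 were lower and 0 higher, beside 5.21% and 4.3% of all genes. Acot1, an acyl-CoA thioesterase gene whose product undoes the activation step, was measured at 7.23, 7.26, 7.98 and 6.64 in WT and at 6.15, 6.18, 6.15 and 6.45 in HNF6KO. All HNF6KO arrays lay below all WT arrays, for this 1 gene of the list, beside 5.67% of all genes whose groups did not overlap. The change of Acot1 was -1.05 ± 0.24 (SE, limma, adjusted p = 0.150). Over the alternative fits the adjusted p ran from 0.0216 to 0.377. The ω-hydroxylase genes Cyp4a14 and Cyp4a10 had changes of -1.38 ± 0.53 (adjusted p = 0.444) and -0.46 ± 0.18 (adjusted p = 0.470), and the carnitine palmitoyltransferase gene Cpt2 one of -0.19 ± 0.08 (adjusted p = 0.515). Relatives within the Acot and Cyp4a families are close in sequence and can share signal. Of 11 measured PPARγ targets of fatty liver 0 rose and 0 fell, beside 0.399% of all genes in either direction. A change below 0 was found for 8 (57.4% over all genes), and the median was -0.05. In limma 2 of them were lower and 0 higher at an unadjusted p of 0.05, beside 5.21% and 4.3% of all genes. Gpd1, the glycerol-3-phosphate dehydrogenase gene, had a change of -0.81 ± 0.17 (limma, adjusted p = 0.128). It was the 1 gene of this list whose groups did not overlap, beside 5.67% of all genes. The lipid droplet gene Cidec had one of -0.18 ± 0.07 (adjusted p = 0.482). The genes Mogat1 and Vldlr had changes of -0.06 ± 0.05 (adjusted p = 0.800) and 0.04 ± 0.05 (adjusted p = 0.875).

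**Figure D5:**
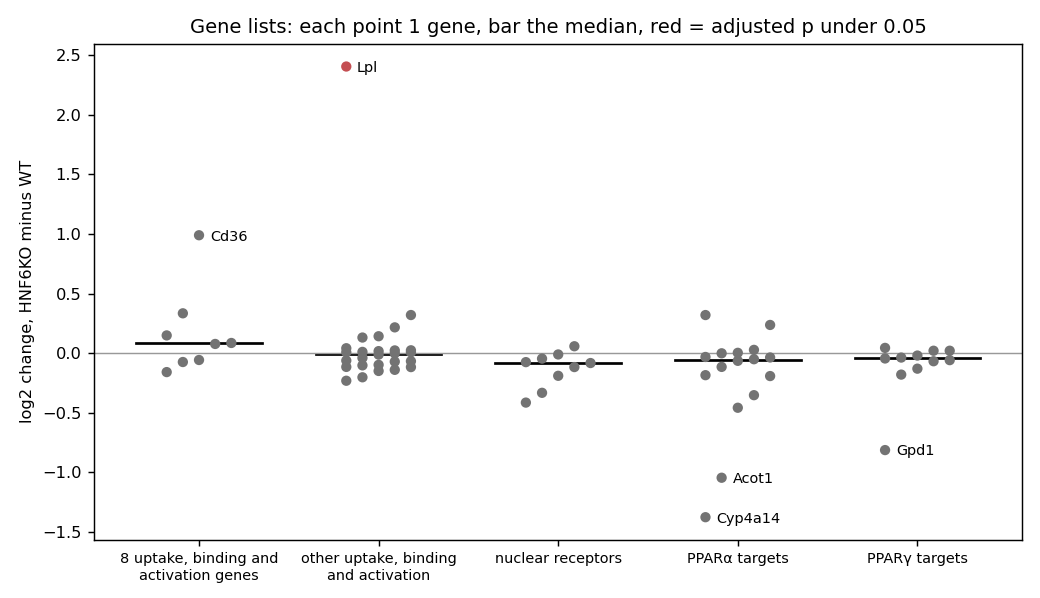
Log2 change (HNF6KO minus WT) of the measured genes in 5 lists, each point 1 gene, the bar the median of the list, and red marking an adjusted p under 0.05 in limma. Lpl at 2.41 is the 1 red point, and Cd36 at 0.99 stands highest among the 8 genes.

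The labels were checked against the depleted gene and the markers of liver cells. Onecut1 fell by 1.32 ± 0.18 (SE, limma, adjusted p = 0.0273), a call lost without WT array 1, 3 or 4 or HNF6KO array 3 or 4 (log2 changes of -1.34 to -1.23, adjusted p up to 0.0954). Its means were 10.25 ± 0.30 in WT and 8.93 ± 0.31 in HNF6KO (SD, n = 4). The HNF6KO mean still stood at the 81.8th percentile of all genes, with 9.32, 9.05, 8.67 and 8.70 on HNF6KO arrays 1 to 4. The change was -0.83 among arrays 1 and 2 (adjusted p = 0.171), -1.80 among arrays 3 and 4 (adjusted p = 0.00140), and -1.06 without HNF6KO arrays 3 and 4 (adjusted p = 0.0983). Hepatocyte markers averaged 13.38 to 13.46 in WT and 13.35 to 13.50 in HNF6KO, with Alb, the albumin gene, brightest. Sinusoidal endothelial markers averaged 8.48 to 9.37 in WT and 8.47 to 9.51 in HNF6KO, and they and the Kupffer markers were higher on arrays 3 and 4 than on arrays 1 and 2 in both groups. Monocyte and neutrophil markers averaged 5.75 to 6.02 in WT and 5.80 to 5.92 in HNF6KO. The brightest genes of the Kupffer, sinusoidal, capillary, stellate and monocyte lists were Clec4f (mean 9.79), Fcgr2b (10.10), Plvap (8.81), Dcn (11.24) and Lyz2 (9.10). In all 8 cell type lists 0 genes rose or fell, beside 0.399% of all genes. At an unadjusted p of 0.05 in limma 2 of 7 adipocyte and 2 of 10 enterocyte markers were lower (5.21% of all genes). Of the 8 capillary markers 1 was higher (4.3% of all genes), and the other lists had none. The groups did not overlap for 2 of 7 hepatocyte markers, both higher. The same held for 1 adipocyte and 1 enterocyte marker, both lower, beside 5.67% of all genes in either direction. In all, 78 of 19540 genes passed, 31 higher and 47 lower.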

How the data were processed

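Per the labels' protocols, RNA was extracted with Trizol and hybridised after whole-transcript terminal labelling with biotin. The authors' deposited table holds log2 values (read as log2 from their range, 3.69 to 14.1) of 22725 probe sets. Nothing in the sources names the base, background correction or normalization, and no value was rescaled. A shift of most transcripts would be hidden if the arrays had been scaled alike. Of the probe sets, 21113 had 1 gene symbol in the platform annotation, 43 several and 1569 none here. The brightest probe set stood for each of 19540 genes. The number of arrays limits the precision.

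Groups were compared with limma 3.58.1 in R 4.3.3 (lmFit and eBayes, no covariates) over all genes, with Benjamini-Hochberg adjustment and a threshold of 0.05. The members and lists were chosen with earlier results of these data known. The text names all members, Onecut1, Lpl, of each other process list the genes past the threshold and up to 4 with the smallest p, and the brightest gene of each marker list. Adipoq and Sis were named after their values were seen. Alternatives were quantile, median and cyclic loess scaling, only genes from the 40th percentile of the mean level upward, a robust fit with a trend, array weights, thresholds of 0.01 and 0.1, probe sets averaged or kept apart, a replicate block, the split of arrays 1 and 2 from 3 and 4, and leaving out arrays. On data simulated for this comparison (19540 genes), limma called 82% of 50 genes whose log2 change was 0.5 and 92% of 50 whose change was 1. It also called 7 of 19340 unchanged genes. The simulated noise was independent for each gene and array, without the differences that the real arrays share across genes. These rates therefore do not say how often changes of these sizes are called on the real arrays.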

Additional observations from a re-analysis of the deposited data

Results flagged for a closer look

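In 50 groups of 4 arrays (25 named genes in 2 genotypes), 4 had 1 array whose gap to the nearest other exceeded the share of the group's range set by Dixon's 95% critical value, where chance alone gives about 1 in 20. None of them was a value of the 8 measured uptake, binding and activation genes. Slc27a5 was high on array 1 in both groups, at 11.99 on WT array 1 and 12.39 on HNF6KO array 1, against 11.84 to 11.86 and 12.14 to 12.16 on the others. Acot1 stood at 6.45 on HNF6KO array 4, above the other HNF6KO arrays. Cyp4a10 stood at 11.43 on WT array 3, above the other WT arrays.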

How the results depend on the processing

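The count of 0 among the 8 measured genes held in all alternatives run, and 164 of 168 recomputed log2 changes kept their sign and their side of the threshold. Several of these alternatives cannot alter a log2 change here. The percentile filter and the robust trend fit act only on other genes or on the variances. Probe sets averaged or kept apart give the same change because each of the 8 genes had 1 probe set. The replicate block and the split term give the same change because the groups were balanced. In all of these only the adjusted p could move. The 4 that changed sign were Fabp2 without WT array 4 (-0.0228) and Fabp4 without WT array 1 (-0.0186), without HNF6KO array 2 (-0.0218) and within arrays 3 and 4 (-0.133). Hnf4a also changed sign with array quality weights (0.0142). With 1 array left out, Fabp2 ran from -0.0228 to 0.250 and Fabp4 from -0.0218 to 0.189. The cause was not tested. Over all genes the count of 78 became 202 with array quality weights, 245 with the split of arrays 1 and 2 from 3 and 4 as a term, 22 within arrays 1 and 2, 19 without HNF6KO arrays 3 and 4 together, 14 at a threshold of 0.01 and 162 at 0.1. With 1 array left out it ran from 16 to 79. The 1 call among the other process lists (Lpl) became 2 with array quality weights (Gpd1 added) and 2 within arrays 1 and 2 (Acot1 added). With the replicate number as a block, 125 genes passed and 0 of the 8, while Cd36 had an adjusted p of 0.232. Same-numbered arrays correlated in their deviations from the group means by 0.44, 0.17, 0.51 and 0.02 across genes. One of these lies under 0.1, so the numbers were not taken to pair the arrays. Arrays 1 and 3 of both groups correlated best with their own number, arrays 2 and 4 did not, and WT arrays 1 and 2 correlated with HNF6KO arrays 3 and 4 by -0.50 to -0.21. Quantile normalization, median centring and cyclic loess moved the median change of all genes from -0.015 to between -0.0084 and -6.39e-04. Signal over background is not given by the deposited values, so whether the Fabp4 change is understated was not tested.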
